A study of Homo sapiens with 18 samples.

Results

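Clones carrying a mutant IDH1 allele were compared with clones carrying a mutant IDH2 allele of the same human cell line. The IDH1-mutant group held 6 expression arrays of 3 clones and the IDH2-mutant group 8 arrays of 4 clones, together 14 of the 18 arrays and 7 of the 9 clones in the series. The clones were assigned by their labelled genotype, and the groups were chosen with earlier results of these data known. HCT116, the line behind all of them, is an established colorectal carcinoma line, and the study used isogenic clones of it to ask how IDH mutations bear on the epithelial-mesenchymal transition. The IDH1-mutant clones were 2C11 and 2H1, which carry R132H, and 3A4, which carries R132C. The IDH2-mutant clones were 8G12 and 17H5, which carry R140Q, and 47C2 and 45G3, which carry R172K. In the titles each of these 7 clones is heterozygous, with a wild-type allele beside the mutant one. All were grown for 6 days with no treatment, and each gave total RNA for 2 arrays that are labelled as biological replicates. The parental line, and clone 16F8, in which the mutant IDH1 allele is not expressed, were not used in the comparison. They served only as a further group in an alternative fit, where they are called the wild-type clones. Each line is 1 clone, R132C rests on 3A4 alone, and the mutated residue cannot be told apart from the compartment of the enzyme, because each residue belongs to 1 of the enzymes.

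IDH1 and IDH2 encode NADP-dependent isocitrate dehydrogenases that oxidise isocitrate to 2-oxoglutarate and make NADPH. IDH1 works in the cytosol and in peroxisomes, and IDH2 works in mitochondria. The mutant forms found in tumours reduce 2-oxoglutarate to 2-hydroxyglutarate with NADPH. 2-hydroxyglutarate inhibits dioxygenases that use 2-oxoglutarate, among them histone and DNA demethylases. The comparison therefore asks whether the same kind of reaction leaves a different imprint on expression when it runs in a different compartment.

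The values were Affymetrix MAS5 signals, a brightness per probe set on a linear scale, scaled so that the middle 96% of the probe sets averaged 149.98 in every array. Differences are given as IDH1-mutant minus IDH2-mutant on a scale of log2(signal + 2.2), which understates the differences of dim genes. The 7 clone means were the samples of each test, and levels are clone means of 2 arrays. Errors of differences are standard errors, and errors of mean signals are SDs over the 3 or 4 clones of a group. Replicate arrays of a clone correlated at 0.987 to 0.995, and clones of different enzymes at 0.949 to 0.987. The first principal component held 47% of the variance and did not part the enzymes, since the IDH1-mutant clone 2C11 lay at -3.7, between the IDH2-mutant clones 47C2 at 3.6 and 45G3 at -5.4. The epithelial markers EPCAM, KRT8, KRT18, KRT19 and CDH1 summed to 11126.9 to 13633.1 in IDH1-mutant arrays and 10549.9 to 11978.5 in IDH2-mutant arrays, and the dimmest of the 5, CDH1, was at 450 or more in every array. Of 13 fibroblast and endothelial markers 11 lay below the array median in every array, and the list summed to 220.6 to 320 in IDH1-mutant and 223.5 to 333.8 in IDH2-mutant arrays. These sums came largely from COL1A1, which lay above the array median in every array. It was at 187 to 278.8 in IDH1-mutant and 192 to 299.5 in IDH2-mutant arrays. Of 6 haematopoietic markers on the array 4 lay below the median in every array, with PTPRC at 4.6 or less, and the sums of 77 to 164.7 in IDH1-mutant against 38.8 to 70.3 in IDH2-mutant arrays came largely from LYZ.

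No gene passed limma's test between the enzymes at an adjusted p of 0.05, 0 of the 12414 genes tested (0%), and the smallest adjusted p was 0.0563. At an unadjusted p under 0.05 there were 1759 genes, 815 higher in IDH1-mutant clones (6.57%) and 944 lower (7.6%). The clone means did not overlap in 1588 genes (12.8%), with 751 higher in all 3 IDH1-mutant clones (6.05%) and 837 lower in all 3 (6.74%). All 6 IDH1-mutant arrays lay on 1 side of all 8 IDH2-mutant arrays in 199 genes (1.6%), 78 above (0.628%) and 121 below (0.975%). Clone 2C11 weighed on these counts: without it 113 genes passed, 76 higher and 37 lower in the other IDH1-mutant clones, and without its replicate 1 array alone 32 passed. Without another array 10 passed (45G3 replicate 2), 5 (47C2 replicate 1) or 2 (47C2 replicate 2, 2H1 replicate 2 or 3A4 replicate 2), without clone 47C2 3 passed and without 2H1 1 passed. A fit that weighted the 4 genotypes equally is not counted here. In it R132C was 1 clone, and the error came only from the spread within the other genotypes. With the 14 arrays as samples and the clone as a random block 113 genes passed. A gene entered the tests if any clone had both of its arrays at or above the array's median signal, so a gene that entered through 1 clone had to be higher there. Words such as higher and lower below therefore describe the measured means, and each gene's adjusted p says how far it stood from the threshold.

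The mutated genes themselves differed in opposite directions. IDH1 had signals of 1847 (2C11), 2193 (2H1) and 1560 (3A4) with mutant IDH1, against 1406 (8G12), 1465 (17H5), 1334 (47C2) and 1397 (45G3) with mutant IDH2. All IDH1-mutant clones lay above all IDH2-mutant clones, by 0.40 ± 0.10 (SE; adjusted p = 0.192), and 2H1 was the highest. With its probe set of highest variance IDH1 differed by 0.63. IDH2 had signals of 128 (2C11), 116 (2H1) and 119.6 (3A4) with mutant IDH1, against 274 (8G12), 227 (17H5), 166 (47C2) and 158 (45G3) with mutant IDH2. All IDH1-mutant clones lay below all IDH2-mutant clones, by -0.73 ± 0.19 (adjusted p = 0.192), with the R140Q clones the highest. Against the R140Q clones alone the IDH2 difference was -1.04 and passed (adjusted p = 0.0329), and against the R172K clones it was -0.42 (adjusted p = 0.606). Each mutated gene thus had a higher mean signal in its own mutant group than in the other. A probe set reads the transcripts of both alleles together, and a bulk signal cannot tell fewer expressing cells from less RNA per cell.

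CPT1C, a brain-type relative of the carnitine palmitoyltransferases that is found in the endoplasmic reticulum, shared the smallest adjusted p. Its signals were 34.3 (2C11), 55.5 (2H1) and 32.2 (3A4) with mutant IDH1, against 183 (8G12), 132.3 (17H5), 137 (47C2) and 125 (45G3) with mutant IDH2. The highest IDH1-mutant clone, 2H1, lay far below the lowest IDH2-mutant clone, 45G3. CPT1C differed by -1.82 ± 0.21 (adjusted p = 0.0563), a mean of 40.7 ± 12.9 in IDH1-mutant and 144 ± 26.2 in IDH2-mutant clones. It passed in the fit that also held the wild-type clones (adjusted p = 0.0419), but its adjusted p rose as high as 0.238 in other alternative fits. HADH, the mitochondrial enzyme that oxidises 3-hydroxyacyl-CoA in fatty acid oxidation, had signals of 435 (2C11), 458 (2H1) and 366 (3A4) with mutant IDH1, against 615 (8G12), 585 (17H5), 610.4 (47C2) and 589.8 (45G3) with mutant IDH2. The IDH2-mutant clones lay within a narrow band above all IDH1-mutant clones, and the difference was -0.52 ± 0.10 (adjusted p = 0.135). Of the 26 genes of a carnitine shuttle and fatty acid oxidation list, 24 were on the array and 22 were tested. At an unadjusted p under 0.05, 3 were lower, CPT1C, HADH and ECI1, an isomerase of unsaturated fatty acid oxidation (-0.38 ± 0.13), and 0 were higher. These were 13.6% of the list, against 14.2% of all genes in either direction. The clones did not overlap in CPT1C and HADH, which were lower, and in CPT1A, the liver-type carnitine palmitoyltransferase, which was higher by 0.13 ± 0.10 and is named after its values were seen (13.6%, against 12.8% of all genes). Both shares were near those of all genes. ACAA2, the mitochondrial thiolase, differed by -0.34 ± 0.17 and its clones overlapped. The median of the list was -0.087, against -0.022 over all genes tested.

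**Figure D1:**
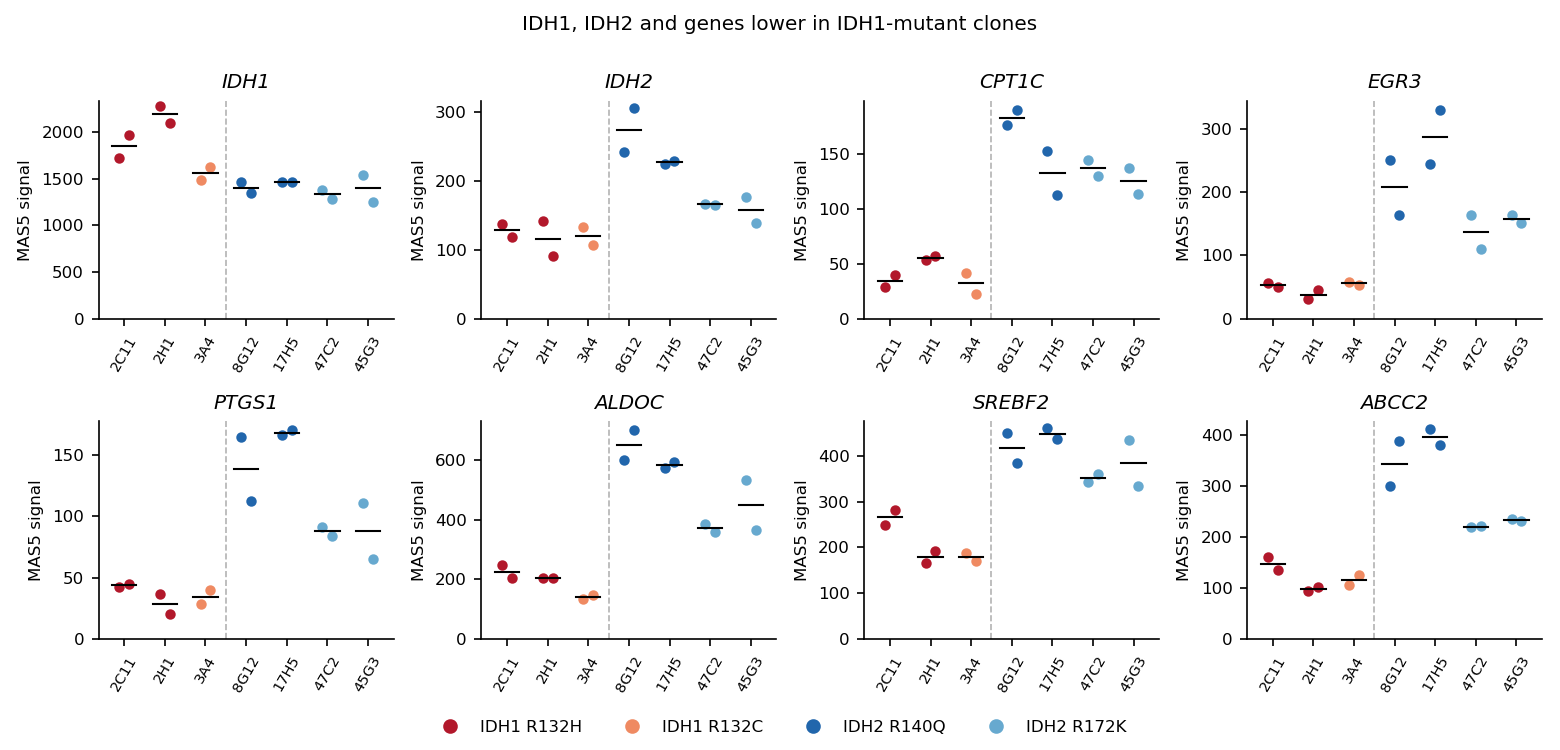
MAS5 signal (linear axis from 0) of IDH1, IDH2 and 6 genes lower in IDH1-mutant clones, by clone; points are the 2 arrays of a clone, lines are clone means, red marks IDH1-mutant and blue IDH2-mutant clones. In CPT1C, EGR3, PTGS1, ALDOC, SREBF2 and ABCC2 every IDH1-mutant array lies below every IDH2-mutant array, and IDH1 is the panel in which the red clones are the higher ones.

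Lipid synthesis genes lay lower in IDH1-mutant clones, with the regulator of cholesterol synthesis among the clearest single genes. SREBF2 encodes the transcription factor that turns on cholesterol synthesis genes when sterols are low, and its signals were 266 (2C11), 180.1 (2H1) and 179.6 (3A4) with mutant IDH1, against 418 (8G12), 449 (17H5), 352 (47C2) and 386 (45G3) with mutant IDH2. No IDH1-mutant array reached an IDH2-mutant array, and the difference was -0.95 ± 0.16 (adjusted p = 0.115). Of 25 cholesterol synthesis genes 19 were on the array and all of these were tested. In 9 the level was lower at an unadjusted p under 0.05 and in 0 higher (47.4%, against 14.2% of all genes in either direction), and in 6 all 3 IDH1-mutant clones lay below all 4 IDH2-mutant clones (31.6%, against 12.8% of all genes in either direction). The list median was -0.245 against -0.022 over all genes. MVK, mevalonate kinase, averaged 46.3 ± 13.4 in IDH1-mutant and 72 ± 8.23 in IDH2-mutant clones and differed by -0.65 ± 0.20. DHCR7, which makes cholesterol from 7-dehydrocholesterol, averaged 95.9 ± 18.9 in IDH1-mutant and 145 ± 18.8 in IDH2-mutant clones and differed by -0.60 ± 0.16. SQLE, squalene epoxidase, averaged 520.2 ± 84.5 in IDH1-mutant and 739.5 ± 91.5 in IDH2-mutant clones and differed by -0.51 ± 0.14. The adjusted p of these 3 lay between 0.205 and 0.232, and none of the list passed.

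Fatty acid synthesis genes, which the related factor SREBF1 controls, had a like median of -0.248 over the 15 tested of 18. At an unadjusted p under 0.05, 5 were lower and 0 higher (33.3%, against 14.2% of all genes in either direction), and in 4, all lower, the clones did not overlap (26.7%, against 12.8%). FASN, fatty acid synthase, had signals of 288 (2C11), 208 (2H1) and 178 (3A4) with mutant IDH1, against 347 (8G12), 379 (17H5), 319 (47C2) and 400.1 (45G3) with mutant IDH2. The lowest IDH2-mutant clone still lay above 2C11, the highest IDH1-mutant clone, and the difference was -0.71 ± 0.16 (adjusted p = 0.167). ACACA, the acetyl-CoA carboxylase that makes malonyl-CoA for that synthesis, averaged 687 ± 85.9 in IDH1-mutant and 934 ± 73.8 in IDH2-mutant clones and differed by -0.45 ± 0.11. ELOVL6, an elongase of saturated fatty acids, differed by -0.36 ± 0.11, and MID1IP1, a protein that activates acetyl-CoA carboxylase, by -0.42 ± 0.12. After quantile normalization the medians were -0.241 for cholesterol and -0.262 for fatty acid synthesis. LIPG, endothelial lipase, was among the 5 largest differences with separated arrays, with signals of 42.1 (2C11), 3.65 (2H1) and 9.5 (3A4) with mutant IDH1, against 97.8 (8G12), 146 (17H5), 54.8 (47C2) and 66.2 (45G3) with mutant IDH2. 2C11 lay far above 2H1 and 3A4 and close below 47C2, and the difference was -2.61 ± 0.60 (adjusted p = 0.167).

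The promoters of SREBF2 and of ALDOC, the glycolytic gene described next, are shown because each holds a match to a motif of its own pathway. The windows are the 250 bases before the gene's start, from RefSeq on build GRCh38.p14, written 5′ to 3′ on the gene's strand, chr22:41832855-41833104 on the plus strand for SREBF2 and chr17:28576896-28577145 on the minus strand for ALDOC. Capitals mark TCACNCCAC, a form of the sterol regulatory element, and ACGTG, the core of the hypoxia response element, either one on either strand.
SREBF2: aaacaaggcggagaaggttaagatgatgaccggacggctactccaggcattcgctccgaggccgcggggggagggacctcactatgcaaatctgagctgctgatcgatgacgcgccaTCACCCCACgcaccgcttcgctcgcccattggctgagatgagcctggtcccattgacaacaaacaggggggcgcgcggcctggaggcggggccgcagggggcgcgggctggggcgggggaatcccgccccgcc
ALDOC: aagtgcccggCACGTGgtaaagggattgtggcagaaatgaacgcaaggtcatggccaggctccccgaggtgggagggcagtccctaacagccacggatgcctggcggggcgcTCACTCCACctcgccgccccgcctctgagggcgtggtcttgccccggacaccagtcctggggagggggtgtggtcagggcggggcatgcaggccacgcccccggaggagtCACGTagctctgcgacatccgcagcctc
The SREBF2 window holds TCACCCCAC with its first base 133 bases before the start. The ALDOC window holds TCACTCCAC 138 bases before the start and CACGTG 240 bases before it, in which the ACGTG matches of both strands overlap, and a further CACGT 28 bases before it. TCACNCCAC occurs in 310 of 35116 promoter windows of that length (0.883%) and ACGTG in 6501 (18.5%). Of the cholesterol synthesis genes with a window, 1 of 17 held TCACNCCAC, which is SREBF2 itself. Of the hypoxia and glycolysis genes, 18 of 30 held ACGTG (60%), against 21.7% of 27305 genes. A match describes these letters and is no evidence of binding.

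ALDOC, aldolase C, a glycolytic enzyme that hypoxia induces, had signals of 225 (2C11), 204 (2H1) and 140.3 (3A4) with mutant IDH1, against 652 (8G12), 584 (17H5), 373 (47C2) and 449.6 (45G3) with mutant IDH2. The groups were far apart, and the R140Q clones were the highest. It differed by -1.42 ± 0.22 (adjusted p = 0.0832), the same adjusted p as PTGS1 below. PDK1, the kinase that shuts off pyruvate dehydrogenase and a target of the hypoxia-inducible factor, had signals of 297 (2C11), 273 (2H1) and 398 (3A4) with mutant IDH1, against 621 (8G12), 724 (17H5), 445 (47C2) and 455 (45G3) with mutant IDH2. The clones did not overlap, though 3A4 came near the R172K clones, and the difference was -0.79 ± 0.19 (adjusted p = 0.179). PFKFB4, which makes an activator of phosphofructokinase, averaged 70.3 ± 3.44 in IDH1-mutant and 105 ± 16.2 in IDH2-mutant clones and differed by -0.56 ± 0.15. LDHA, lactate dehydrogenase A, pointed the other way by 0.25 ± 0.07, a bright gene whose difference was 0.06 after quantile normalization. All 33 of the 34 hypoxia and glycolysis genes on the array were tested. At an unadjusted p under 0.05, 7 were lower and 3 higher (30.3%, against 14.2% of all genes), and the clones did not overlap in 6 lower and 2 higher (24.2%, against 12.8%). The median was -0.097, against -0.022 over all genes.

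EGR3 and SPRY4 are induced by growth factor signalling through the ERK kinases, EGR3 as an early transcription factor and SPRY4 as a feedback inhibitor. EGR3 had signals of 53.3 (2C11), 37.6 (2H1) and 55.9 (3A4) with mutant IDH1, against 208 (8G12), 288 (17H5), 137 (47C2) and 158 (45G3) with mutant IDH2. Every IDH2-mutant clone was above all IDH1-mutant clones and 17H5 was the highest, for a difference of -1.92 ± 0.25 (adjusted p = 0.0563). SPRY4 had signals of 695 (2C11), 675 (2H1) and 743 (3A4) with mutant IDH1, against 985 (8G12), 1132 (17H5), 1217 (47C2) and 948 (45G3) with mutant IDH2, again with no overlap, and differed by -0.60 ± 0.10 (adjusted p = 0.126). KSR2, a scaffold of the same kinase cascade, averaged 141 ± 45.2 in IDH1-mutant and 324 ± 59.1 in IDH2-mutant clones and differed by -1.23 ± 0.22 (adjusted p = 0.135). PTGS1, the constitutive cyclooxygenase that starts prostaglandin synthesis, had signals of 43.7 (2C11), 28.5 (2H1) and 34.3 (3A4) with mutant IDH1, against 139 (8G12), 168 (17H5), 87.9 (47C2) and 87.8 (45G3) with mutant IDH2. Its R172K clones lay between the IDH1-mutant and the R140Q clones, and the overall difference was -1.67 ± 0.26 (adjusted p = 0.0832). ABCC2, an export pump for conjugates, had signals of 148 (2C11), 98.7 (2H1) and 115 (3A4) with mutant IDH1, against 344 (8G12), 397 (17H5), 220.2 (47C2) and 234 (45G3) with mutant IDH2, the same order of genotypes, and differed by -1.27 ± 0.22 (adjusted p = 0.135).

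Other genes in which all arrays of the enzymes were apart, with IDH1-mutant lower, had smaller or more variable differences. DDX60L, a helicase-family gene, differed by -0.82 ± 0.14, CSPG5, a proteoglycan, by -0.73 ± 0.13, EML2, a microtubule-associated protein, by -0.60 ± 0.11, and CECR2, a bromodomain protein, by -0.78 ± 0.15. PCDH7, a protocadherin of cell adhesion, had the largest difference among genes with separated arrays, with signals of 530.4 (2C11), 11.7 (2H1) and 83.1 (3A4) with mutant IDH1, against 1594 (8G12), 1699 (17H5), 881 (47C2) and 1108 (45G3) with mutant IDH2. Within the IDH1-mutant clones it ran from background level in 2H1 to 530.4 in 2C11, so the difference of -3.90 ± 0.93 had an adjusted p of 0.169. KRT23, a keratin, had signals of 38.5 (2C11), 33.5 (2H1) and 33.5 (3A4) with mutant IDH1, against 526 (8G12), 279.5 (17H5), 54.3 (47C2) and 93.9 (45G3) with mutant IDH2. The IDH1-mutant clones lay close together, the R172K clones were above them, and the R140Q clones were far above both.

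Among the genes higher in IDH1-mutant clones, ALDH1A3, an aldehyde dehydrogenase that makes retinoic acid, had the smallest adjusted p with separated arrays. Its signals were 2568 (2C11), 2910 (2H1) and 2921 (3A4) with mutant IDH1, against 1926 (8G12), 1736 (17H5), 2016 (47C2) and 1935 (45G3) with mutant IDH2. The 4 IDH2-mutant clones lay close together and below all IDH1-mutant clones, and the difference was 0.56 ± 0.07 (adjusted p = 0.0563). PPARG, the nuclear receptor that drives adipocyte genes and lipid storage and is also made in colon epithelium, had signals of 314 (2C11), 566 (2H1) and 611 (3A4) with mutant IDH1, against 161 (8G12), 113 (17H5), 213 (47C2) and 247 (45G3) with mutant IDH2. Each IDH1-mutant clone exceeded each IDH2-mutant clone, least so 2C11 over 45G3, and the difference was 1.43 ± 0.29 (adjusted p = 0.154). NCEH1, a hydrolase of cholesteryl esters, averaged 363 ± 72.9 in IDH1-mutant and 205 ± 27.2 in IDH2-mutant clones and differed by 0.80 ± 0.16 (adjusted p = 0.135). The transcription factors GLIS3, at 214 (2C11), 474 (2H1) and 268 (3A4) with mutant IDH1, against 103 (8G12), 31.1 (17H5), 127 (47C2) and 118 (45G3) with mutant IDH2, and GATA2, at 194 (2C11), 462 (2H1) and 437 (3A4) with mutant IDH1, against 162 (8G12), 85.5 (17H5), 159.6 (47C2) and 150.4 (45G3) with mutant IDH2, had larger spreads. They differed by 1.82 ± 0.45 and 1.32 ± 0.32 (adjusted p = 0.179 and 0.176), and in GATA2 clone 2C11 lay only slightly above the IDH2-mutant clones. SERINC2, a membrane protein of the serine incorporator family, differed by 0.91 ± 0.19 (adjusted p = 0.167), and LYZ, lysozyme, by 1.61 ± 0.34 (adjusted p = 0.167). LYZ is also 1 of the haematopoietic markers, of which PTPRC, CD3E and CD14 were at 4.6 or less in all 14 arrays. CD79A was at 7.4 to 12.7 in IDH1-mutant and 2.8 to 12.9 in IDH2-mutant arrays. HBB leaned the other way from LYZ, at 6.4 to 13.2 in IDH1-mutant and 10.8 to 24.5 in IDH2-mutant arrays.

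**Figure D2:**
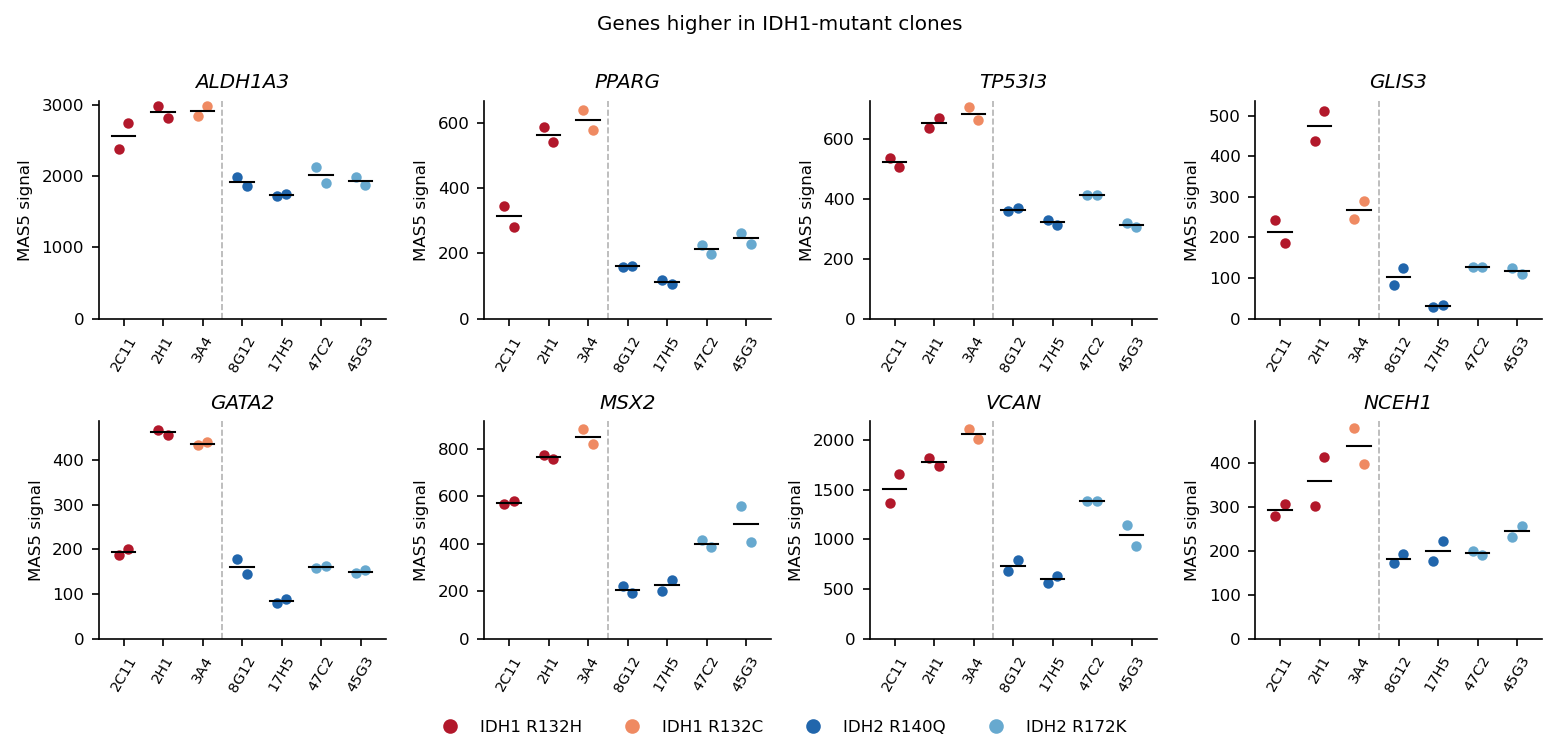
MAS5 signal (linear axis from 0) of 8 genes higher in IDH1-mutant clones, by clone; points are the 2 arrays of a clone and lines are clone means. All red IDH1-mutant arrays lie above all blue IDH2-mutant arrays in each panel except VCAN, where 1 array of 2C11 lies below 47C2, and in MSX2 and VCAN the R172K clones lie between the R140Q and the IDH1-mutant clones.

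Targets of p53 lay higher in IDH1-mutant clones as a list. HCT116 has wild-type p53, the factor that halts the cell cycle or starts cell death after damage. Of 30 targets 27 were on the array and 25 were tested. At an unadjusted p under 0.05, 11 were higher and 0 lower (44%, against 14.2% of all genes in either direction), and in 7 all IDH1-mutant clones lay above all IDH2-mutant clones (28%, against 12.8% of all genes in either direction). The median was 0.25, and 0.24 after quantile normalization. TP53I3, an NADPH-dependent quinone reductase induced by p53, had signals of 521 (2C11), 653 (2H1) and 683 (3A4) with mutant IDH1, against 363 (8G12), 322 (17H5), 413 (47C2) and 312 (45G3) with mutant IDH2. No arrays overlapped, and the difference was 0.81 ± 0.14 (adjusted p = 0.124). MDM2, the ligase that degrades p53, averaged 2390 ± 207 in IDH1-mutant and 1932 ± 123 in IDH2-mutant clones and differed by 0.31 ± 0.08, and by 0.19 after quantile normalization and 0.46 with its probe set of highest variance. AEN, a nuclease of apoptosis, differed by 0.45 ± 0.11 and TP53INP1, a stress-induced partner of p53, by 0.50 ± 0.11. The adjusted p of MDM2, AEN and TP53INP1 lay between 0.167 and 0.184, and no member passed. PERP and RPS27L, p53 targets that the rule named outside the list, differed by 0.30 ± 0.05 and 0.32 ± 0.06 with separated arrays, and by 0.14 each after quantile normalization.

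Among targets of NRF2, the factor that answers oxidative stress, more were higher than lower in IDH1-mutant clones. Of 21 tested, 9 were higher and 1 lower at an unadjusted p under 0.05 (47.6%, against 14.2% of all genes), and the clones did not overlap in 4 higher and 1 lower (23.8%, against 12.8%). The median was 0.15, and 0.09 after quantile normalization. AKR1B10, an aldo-keto reductase, had signals of 35.4 (2C11), 36.9 (2H1) and 111 (3A4) with mutant IDH1, against 12.6 (8G12), 13.4 (17H5), 20.3 (47C2) and 22.3 (45G3) with mutant IDH2, with 3A4 far above the other clones, and differed by 1.57 ± 0.39 (adjusted p = 0.179). OSGIN1, a growth inhibitor induced by oxidative stress, differed by 0.88 ± 0.25. NQO1, a quinone reductase, averaged 3354 ± 105 in IDH1-mutant and 2615 ± 236 in IDH2-mutant clones and differed by 0.37 ± 0.07, and by 0.21 after quantile normalization. ABCC2, the pump described above and counted in this list, was the 1 member that was lower.

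By list median, epithelial markers lay lower and mesenchymal markers higher in IDH1-mutant clones. Of 40 epithelial genes tested, 12 were lower and 3 higher at an unadjusted p under 0.05 (37.5%, against 14.2% of all genes), and the clones did not overlap in 7 lower and 3 higher (25%, against 12.8%). The list median was -0.37, and it was -0.60 against R140Q and -0.13 against R172K, in comparisons that share the 3 IDH1-mutant clones. OVOL1, a transcription factor that keeps the epithelial state, had signals of 109.6 (2C11), 70.6 (2H1) and 52.6 (3A4) with mutant IDH1, against 195 (8G12), 289 (17H5), 131.5 (47C2) and 152 (45G3) with mutant IDH2. IDH1-mutant clones were lowest, R172K clones next and R140Q clones highest, and the difference was -1.29 ± 0.29 (adjusted p = 0.167). CGN, cingulin of tight junctions, differed by -0.47 ± 0.12, but by -0.03 with its probe set of highest variance. CDH1, E-cadherin, differed by -0.57 ± 0.31 and EPCAM, an epithelial adhesion molecule, by -0.27 ± 0.12, with overlapping clones in both (adjusted p = 0.431 and 0.329). The keratins of simple epithelia ran the other way: KRT8 differed by 0.46 ± 0.11, KRT18 by 0.30 ± 0.07 and KRT19 by 0.29 ± 0.08. After quantile normalization these were 0.36, 0.06 and 0.10, so the direction held and most of the size did not for KRT18 and KRT19.

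Of 24 mesenchymal genes tested of 33, 6 were higher and 1 lower at an unadjusted p under 0.05 (29.2%, against 14.2% of all genes). The clones did not overlap in 2 higher and 1 lower, a share near that of all genes (12.5%, against 12.8%). The median was 0.21, and 0.13 after quantile normalization. It was 0.088 against R140Q and 0.208 against R172K. PMEPA1, an inhibitor of TGF-beta signalling that TGF-beta induces, had the largest positive difference in the list, with signals of 61.1 (2C11), 340.2 (2H1) and 473 (3A4) with mutant IDH1, against 14.8 (8G12), 9.5 (17H5), 66 (47C2) and 35.6 (45G3) with mutant IDH2. 2C11 lay below the R172K clone 47C2, so the groups overlapped, and the difference of 3.06 ± 0.74 had an adjusted p of 0.176. THBS1, thrombospondin 1, averaged 185 ± 93.4 in IDH1-mutant and 72 ± 29.8 in IDH2-mutant clones and differed by 1.37 ± 0.38, and FN1, fibronectin, averaged 301 ± 107 in IDH1-mutant and 165 ± 33.5 in IDH2-mutant clones and differed by 0.82 ± 0.25. ZEB1, the repressor of epithelial genes, differed by 0.76 ± 0.34, and VIM, vimentin, by 0.90 ± 0.40, both with overlapping clones. Against R140Q the differences were 1.29 for ZEB1 and 1.604 for VIM, of which VIM passed (adjusted p = 0.048), and against R172K they were 0.24 and 0.19, an order that the list median did not share. TPM2, a tropomyosin, was at 0.24 ± 0.07, and at 0.06 after quantile normalization. SPARC, a matrix protein counted among the mesenchymal markers, was the exception, with signals of 182 (2C11), 188 (2H1) and 14.5 (3A4) with mutant IDH1, against 332 (8G12), 223 (17H5), 409 (47C2) and 480.1 (45G3) with mutant IDH2. It lay lower in every IDH1-mutant clone, by -2.07 ± 0.73 (adjusted p = 0.273), and 3A4 was near background.

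**Figure D3:**
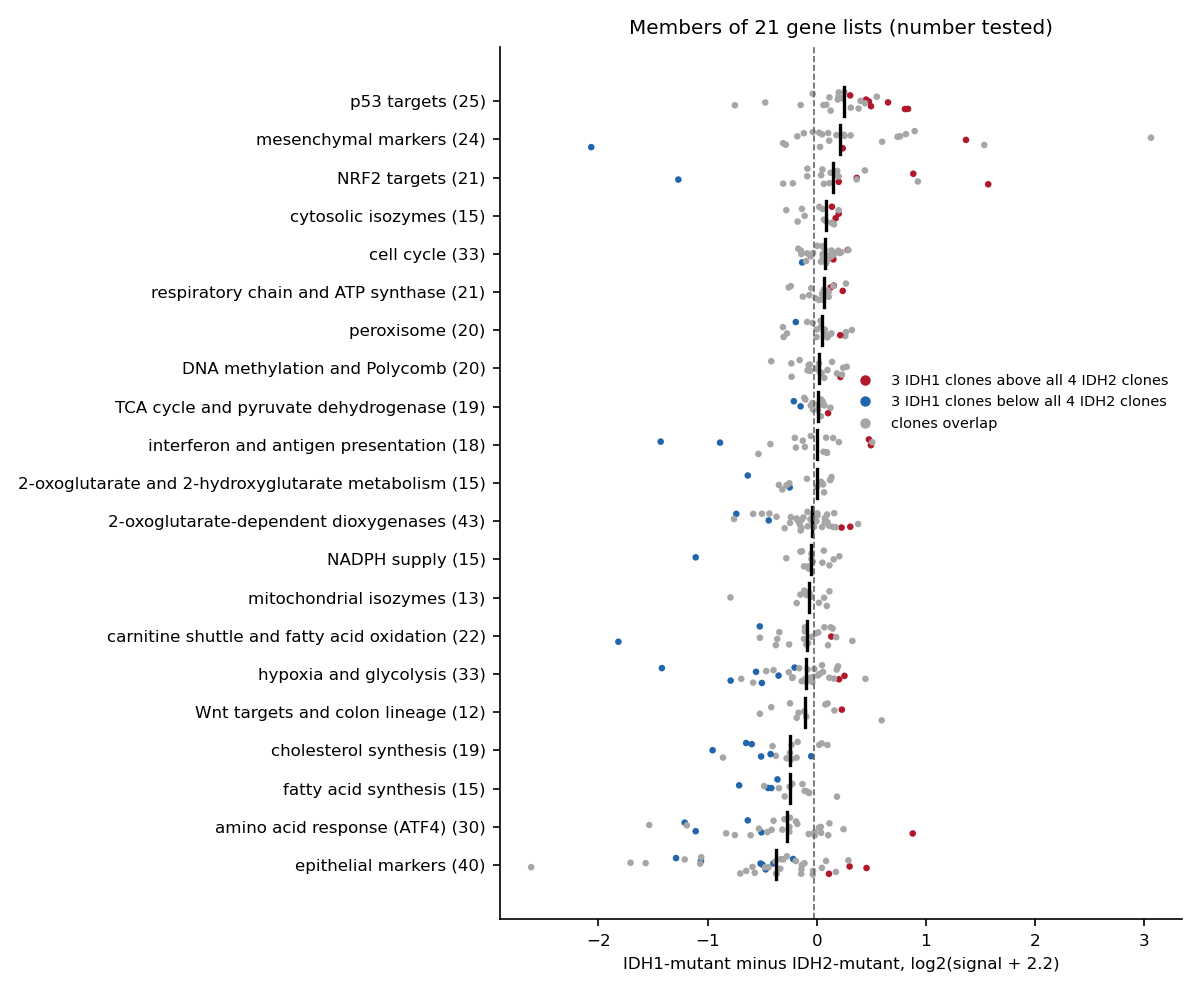
Differences in log2(signal + 2.2), IDH1-mutant minus IDH2-mutant, for the tested members of 21 gene lists (horizontal axis; lists run down the page by median, with the number tested); a point is a gene, black bars are list medians and the dashed line is the median of all genes. p53 targets have the highest median, 0.25, and epithelial markers the lowest, -0.37; red points are genes with all IDH1-mutant clone means above all IDH2-mutant ones and blue points the reverse.

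The lists of enzymes around the mutated reaction had medians near 0. Of 19 genes of the TCA cycle and pyruvate dehydrogenase 1 was lower and 0 higher at an unadjusted p under 0.05 (5.26%, against 14.2% of all genes), and the median was 0.01. The clones did not overlap in 1 higher and 2 lower of them (15.8%, against 12.8% of all genes). DLAT, a subunit of pyruvate dehydrogenase, differed by -0.21 ± 0.07, DLST, a subunit of 2-oxoglutarate dehydrogenase, by -0.15 ± 0.07, DLD, the subunit both share, by 0.13 ± 0.09 and CS, citrate synthase, by 0.10 ± 0.05. After quantile normalization DLD was at 0.03 and CS at -0.001, and DLD was at 0.27 with its probe set of highest variance. Of 15 tested genes of 2-oxoglutarate and 2-hydroxyglutarate metabolism 2 were lower and 0 higher (13.3%), with a median of 0. PHGDH, the first enzyme of serine synthesis, which can also make 2-hydroxyglutarate, had signals of 411 (2C11), 373 (2H1) and 296 (3A4) with mutant IDH1, against 589 (8G12), 706 (17H5), 535 (47C2) and 417 (45G3) with mutant IDH2. Only a small gap parted 2C11 from 45G3, and the difference was -0.63 ± 0.18 (adjusted p = 0.209). SLC25A1, the mitochondrial citrate carrier, differed by -0.35 ± 0.13. D2HGDH, the mitochondrial enzyme that removes D-2-hydroxyglutarate, averaged 63.6 ± 2.68 in IDH1-mutant and 80.3 ± 14.9 in IDH2-mutant clones and differed by -0.28 ± 0.17 with overlapping clones. BCAT2, the mitochondrial aminotransferase of branched-chain amino acids, differed by -0.25 ± 0.12, but by 0.21 with its probe set of highest variance.

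The cytosolic and mitochondrial forms of paired enzymes were set side by side because the mutated enzymes are such a pair. The 15 tested cytosolic isozymes had a median of 0.09, with 3 higher and 0 lower at an unadjusted p under 0.05 (20%, against 14.2% of all genes), and the median was 0.02 after quantile normalization. These 3 were TXNRD1 and TXN, thioredoxin reductase and thioredoxin, at 0.20 ± 0.07 and 0.20 ± 0.07, and SOD1, superoxide dismutase, at 0.14 ± 0.05. After quantile normalization they were at 0.03, 0.02 and -0.04. The 13 mitochondrial isozymes had a median of -0.07, with 0 in either direction. Of them PCK2, the mitochondrial phosphoenolpyruvate carboxykinase, differed by -0.79 ± 0.37, SOD2, the mitochondrial superoxide dismutase, by 0.09 ± 0.08, SHMT2, which supplies mitochondrial one-carbon units, by 0.12 ± 0.08 and GPD2, the glycerol 3-phosphate dehydrogenase of the inner membrane, by -0.10 ± 0.07. The sign of the last 3 was not stable, with SOD2 at -0.04 and SHMT2 at -0.01 after quantile normalization and GPD2 at 0.03 with its probe set of highest variance. PCK2 had 1000 in 17H5 and 454.2 in 8G12, with the other 5 clones between 240.6 and 322. Of 15 tested genes of NADPH supply 1 was lower and 0 higher (6.67%), ALDH1L2, a mitochondrial folate enzyme that makes NADPH, at a dim 6.93 ± 2.92 in IDH1-mutant and 17.3 ± 5.41 in IDH2-mutant clones and -1.11 ± 0.31. ALDH1L2 entered the tests through IDH2-mutant clones alone, so the filter favoured that direction and it is no result. MTHFD1, a cytosolic folate enzyme, differed by -0.28 ± 0.13 and NADK, which makes NADP from NAD, by 0.16 ± 0.10, and by 0.51 with its probe set of highest variance.

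Of 43 tested dioxygenases that use 2-oxoglutarate, 2 were higher and 4 lower at an unadjusted p under 0.05, with a median of -0.04. That is 14% of the list, against 14.2% of all genes, and the clones did not overlap in 9.3%, against 12.8% of all genes, so neither share stood above that of all genes. ALKBH2, which repairs alkylated DNA, had signals of 250.1 (2C11), 189.5 (2H1) and 197 (3A4) with mutant IDH1, against 399 (8G12), 367 (17H5), 355 (47C2) and 294 (45G3) with mutant IDH2. No arrays overlapped, and the difference was -0.74 ± 0.15 (adjusted p = 0.135). EGLN1, the prolyl hydroxylase that marks the hypoxia-inducible factor for degradation, had signals of 1300 (2C11), 1591 (2H1) and 1440 (3A4) with mutant IDH1, against 1196 (8G12), 1142 (17H5), 1116 (47C2) and 1202 (45G3) with mutant IDH2, higher in all IDH1-mutant clones by 0.31 ± 0.08 (adjusted p = 0.203). TMLHE, the first enzyme of carnitine synthesis, differed by -0.44 ± 0.12. ALKBH5, an RNA demethylase, differed by 0.23 ± 0.06, but by -0.22 with its probe set of highest variance and by 0.11 after quantile normalization. Of 20 tested genes of DNA methylation and Polycomb 0 were higher and 1 lower (5%), CBX7, a Polycomb reader of methylated histone H3, at -0.42 ± 0.18. EZH2, the Polycomb methyltransferase, differed by 0.22 ± 0.10, JARID2, its cofactor, by 0.28 ± 0.15 and MBD1, a reader of methylated DNA, by 0.23 ± 0.13, and by 0.38 with its probe set of highest variance.

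The remaining lists, apart from the amino acid response, had medians from -0.105 (Wnt targets and colon lineage) to 0.073 (cell cycle), against -0.022 over all genes. Their counts are at an unadjusted p under 0.05, where 14.2% of all genes lay. Peroxisomal genes, taken because IDH1 also works in that organelle, had 2 higher and 1 lower of 20 tested (15%) and a median of 0.05. CAT, catalase, differed by 0.32 ± 0.12, GNPAT, which starts ether lipid synthesis, by 0.27 ± 0.11, and the import factors PEX16 and PEX7 by -0.31 ± 0.13 and -0.27 ± 0.13. Cell cycle genes had 4 higher and 0 lower of 33 (12.1%) and a median of 0.07, which was 0.04 after quantile normalization, with CCND1, cyclin D1, at 0.28 ± 0.07, PCNA, the replication clamp, at 0.29 ± 0.13, TOP2A, topoisomerase II, at 0.21 ± 0.09, and RRM2, a ribonucleotide reductase subunit, at 0.15 ± 0.06. After it CCND1 was at 0.17 and RRM2 at 0.002, and CCND1 was at 0.68 with its probe set of highest variance. Respiratory chain and ATP synthase genes had 4 higher and 0 lower of 21 (19%) and a median of 0.06, which was 0 after quantile normalization. Its ATP synthase subunits ATP5F1A, ATP5F1B and ATP5PB were at 0.24 ± 0.05, 0.16 ± 0.06 and 0.27 ± 0.09, and at 0.02, 0.02 and 0.15 after it, and COX5A, of cytochrome oxidase, at 0.13 ± 0.04, -0.06 after it and -0.22 with its probe set of highest variance. Interferon and antigen presentation genes split, with 2 higher and 4 lower of 18 (33.3%). BST2 and IFI27, at -1.43 ± 0.28 and -0.89 ± 0.21, were dim, with means of 5.67 ± 1.88 in IDH1-mutant and 17.3 ± 5.03 in IDH2-mutant clones for BST2 and 11.6 ± 2.64 in IDH1-mutant and 23 ± 1.58 in IDH2-mutant clones for IFI27. Both entered the tests through IDH2-mutant clones alone, so the filter favoured a lower level in IDH1-mutant clones and their direction is no result. The 4 lower genes and the 33.3% include both. IFI44 and IFIT3 pointed the other way, at 0.50 ± 0.18 and 0.48 ± 0.14. Wnt target and colon lineage genes had 1 higher and 1 lower of 12 (16.7%). These were CD44, an adhesion receptor, at 0.23 ± 0.06, and MYC, at -0.42 ± 0.16, while AXIN2, a feedback inhibitor of Wnt, and CDX2, a colon transcription factor, were at 0.60 ± 0.36 and -0.25 ± 0.16 with overlapping clones. CD44 was at 0.10 after quantile normalization and 0.004 with its probe set of highest variance.

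The IDH1-mutant clones were also compared with each IDH2 genotype on its own. In the fit with 3 groups, 42 genes passed between IDH1-mutant and R140Q clones (0.338%), 10 higher (0.0806%) and 32 lower (0.258%). Between IDH1-mutant and R172K clones 0 genes passed limma's test (0%), with a smallest adjusted p of 0.29 and 917 genes at an unadjusted p under 0.05 (7.39%, against 18.5% for R140Q). Both comparisons use the same IDH1-mutant clones, and whether a gene's difference itself differed between R140Q and R172K was not tested. The count of 42 moved with single clones and arrays. It was 1 without 17H5, 8 without 2H1, 17 without 47C2 or without 45G3, 26 without 8G12, 66 without 3A4 and 631 without 2C11. Without 1 array it was 99 (2C11 replicate 1), 75 (8G12 replicate 2), 65 (45G3 replicate 2), 27 (2C11 replicate 2), 20 (3A4 replicate 1) or 17 (45G3 replicate 1). Without clone 2C11 35 genes passed against R172K, and without 2H1 1 passed.

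CHAC1, a glutathione-degrading enzyme induced by the amino acid response, had signals of 31.8 (2C11), 45.2 (2H1) and 47.7 (3A4) with mutant IDH1, against 341 (8G12), 621 (17H5), 31.9 (47C2) and 33 (45G3) with mutant IDH2. Both R140Q clones lay far above the other 5 clones, and the difference was -3.40 against R140Q (adjusted p = 0.0052) and 0.33 against R172K (adjusted p = 0.835). The amino acid response list, genes switched on by the factor ATF4 when amino acids run short, had 1 higher and 5 lower of 30 at an unadjusted p under 0.05 in the comparison of enzymes (20%, against 14.2% of all genes). Its median was -0.27, and it was -0.52 against R140Q and 0.004 against R172K. Its members CEBPG, a partner factor of ATF4, and CBS, a dim gene of cysteine synthesis, were at -0.51 ± 0.16 and 0.88 ± 0.27, and CEBPG at -0.33 with its probe set of highest variance. CBS, counted as higher, entered the tests through IDH1-mutant clones alone, and ALDH1L2, counted as lower, through IDH2-mutant clones alone. The filter thus favoured the direction of CBS and of ALDH1L2. KRT23 was at -3.38 against R140Q (adjusted p = 0.0052) and at -0.98 against R172K (adjusted p = 0.575). MSX2, a homeobox factor of the BMP pathway, had signals of 574 (2C11), 768 (2H1) and 851 (3A4) with mutant IDH1, against 207 (8G12), 225 (17H5), 401 (47C2) and 482 (45G3) with mutant IDH2, and VCAN, versican of the extracellular matrix, of 1510 (2C11), 1778 (2H1) and 2060 (3A4) with mutant IDH1, against 735 (8G12), 598 (17H5), 1386 (47C2) and 1039 (45G3) with mutant IDH2. Both were higher than in R140Q clones, by 1.73 and 1.41 (adjusted p = 0.00901 and 0.0207), and at 0.72 and 0.56 against R172K.

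CPT1C, EGR3, PTGS1, ALDOC and ABCC2 passed against R140Q and lay in the same direction against R172K. CPT1C was at -1.94 against R140Q (adjusted p = 0.03) and -1.70 against R172K (0.29), the most even of the 5. EGR3 was at -2.28 (0.00901) and -1.56 (0.29), PTGS1 at -2.07 (0.00901) and -1.28 (0.301), and ALDOC at -1.72 (0.0191) and -1.12 (0.328), each given for R140Q and then for R172K with the adjusted p. ABCC2 was at -1.61 against R140Q (adjusted p = 0.0172) and -0.92 against R172K (adjusted p = 0.402). Among the higher genes PPARG and ALDH1A3 passed against R140Q, at 1.81 (adjusted p = 0.045) and 0.61 (adjusted p = 0.0329). They were at 1.05 and 0.50 against R172K.

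**Figure D4:**
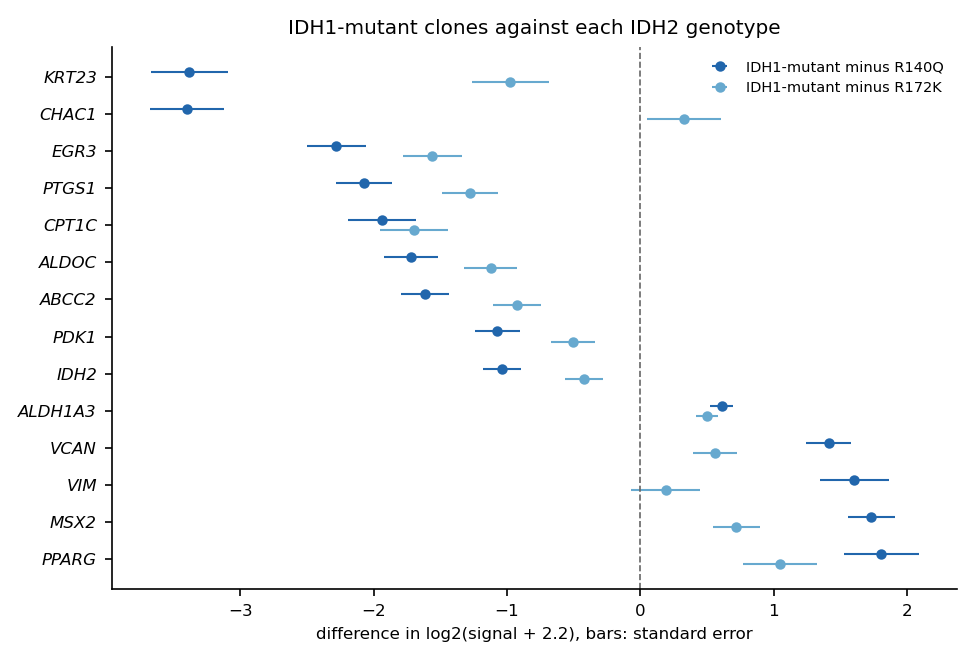
Difference in log2(signal + 2.2) of 14 genes, IDH1-mutant clones minus the R140Q clones (dark blue) and minus the R172K clones (light blue); points are estimates, bars are standard errors and the dashed line is 0. CPT1C and ALDH1A3 have nearly the same difference from both genotypes, while CHAC1 lies at -3.40 for R140Q and 0.33 for R172K, and VIM at 1.604 and 0.19.

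The difference between the enzymes also moved with the brightness of the probe set. The median difference was -0.08 in the 2480 genes with a mean signal under 50, -0.05 between 200 and 500, 0.05 between 1000 and 2000, 0.13 between 2000 and 3000 and 0.20 in the 149 genes over 3000, of which 98% lay above 0. By clone, the median deviation of these 149 genes was 0.04 (2C11), 0.12 (2H1) and 0.17 (3A4) with mutant IDH1, against -0.05 (8G12), -0.11 (17H5), -0.02 (47C2) and -0.16 (45G3) with mutant IDH2. After quantile normalization, which gives each array the same distribution, the medians of all bins lay between -0.05 and 0.01. The bright genes that the rule named shrank with it. ND4, a subunit of respiratory complex I encoded by mitochondrial DNA, was at 0.42 ± 0.05 before (adjusted p = 0.0563) and 0.16 after. HMGB1, a chromatin protein, was at 0.36 ± 0.05 before and 0.16 after, and ANXA1, annexin A1, at 0.44 ± 0.06 before and 0.29 after. SPTBN1, a spectrin, was at 0.29 ± 0.06 before and 0.17 after, and TMED2, a cargo receptor of secretion, at 0.34 ± 0.05 before and 0.16 after. ALDH1A3 was at 0.43 after it. The dimmer genes moved less: CPT1C was at -1.78, EGR3 at -1.89 and SREBF2 at -0.92 after it.

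**Figure D5:**
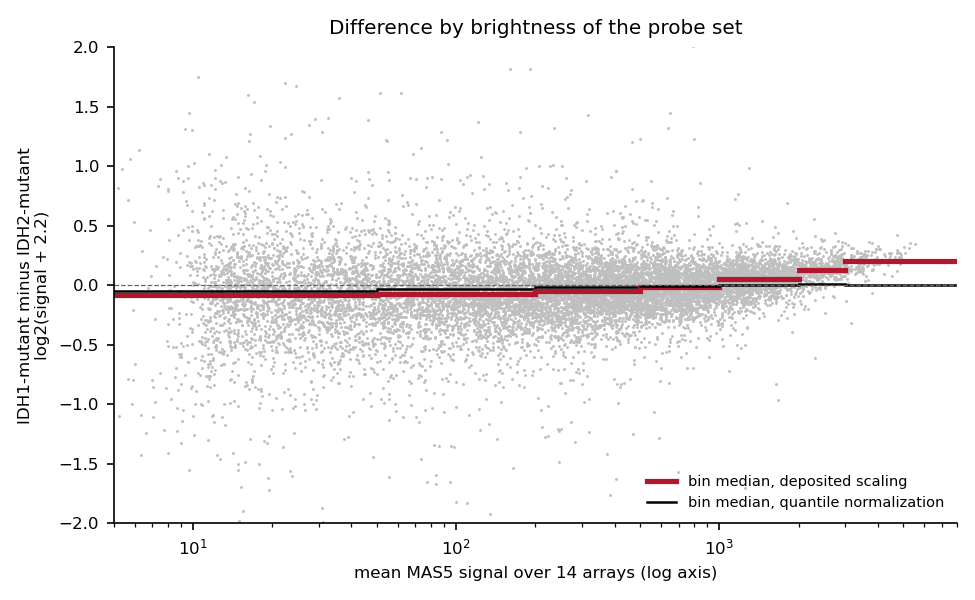
Difference in log2(signal + 2.2), IDH1-mutant minus IDH2-mutant, against the mean MAS5 signal over 14 arrays (log axis); a grey point is a gene, red lines are medians within 7 ranges of signal and black lines the same after quantile normalization; 17 genes outside the axes are not drawn. The red lines climb from -0.08 in the dimmest range to 0.20 in the brightest, and the black lines stay between -0.05 and 0.01.

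By chromosome, the share of genes with all IDH1-mutant clones below all IDH2-mutant clones ran from 2.44% on chromosome 21 to 10.7% on chromosome 19 (92 of 860 genes), which holds CPT1C, BST2, EML2, CEBPG and BCAT2, against 6.74% over all genes. Of these genes BST2 entered the tests through IDH2-mutant clones alone, so its direction is no result. BCAT2 was at 0.211 with its probe set of highest variance. On chromosome 14 the share was 2.95%, and 8.35% of its genes had all IDH1-mutant clones above.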

How the data were processed

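The measured quantity was the intensity of 54675 Affymetrix probe sets in total RNA of 14 arrays, deposited by the authors on a linear scale as MAS5 signals, per the submitters' processing notes. For MAS5 no version or setting is given in the sources used here. Signals ran from 0 to 8394.9 with a median of 13.2, 15.3% were under 1, and array medians were 12.3 to 15.6. Arrays give no counts, and their number limits the precision.

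Of the probe sets 41091 had 1 gene symbol in the platform annotation, 1801 several and 11721 none, and 62 were controls. Signals were taken as log2(signal + 2.2), 2.2 being the 25th percentile. A gene was tested if both arrays of at least 1 clone reached the array's median, with the probe set of highest mean for each gene, which left 12414 of 19775 genes. Clone means were fitted with limma 3.58.1 in R 4.3.3 (lmFit, eBayes with trend; 5 residual degrees of freedom for the enzymes, 4 for IDH1-mutant, R140Q and R172K clones), with two-sided p-values adjusted by Benjamini-Hochberg at 0.05. Nothing in the labels says that clones with the same genotype were derived independently, and the p-values measure the spread between these clones. Gene lists were described by counts and medians, without a test. On simulated data the fit recovered 80% of 100 genes changed by 1 on the log2 scale and 99% of 100 changed by 3. It made 8 false calls in a run of 12414 genes, of which 200 were changed. What share of the real differences between these clones the fit recovers was not tested.

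Genes were named by this rule: IDH1, IDH2, ZEB1, CDH1, VIM and EPCAM; up to 12 in each direction by smallest p, and the 5 largest differences in each direction, among genes whose arrays did not overlap and whose higher group averaged 50 or more; up to 4 members of each list by smallest p; and up to 3 in each direction against each IDH2 genotype. The members of both groups, the rule and the lists were chosen with earlier results of these data known. The replicate numbers were not treated as pairs, since replicate 1 arrays deviated from their clone means with correlations of -0.36 to 0.0833 across the 21 clone pairs, none above 0.1. The alternatives were other offsets, filters, probe sets and variance models, quantile normalization, arrays as samples with and without a replicate block, the wild-type clones as a further group, equal weights for genotypes, and leaving out each array or clone.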

Additional observations from a re-analysis of the deposited data

Results flagged for a closer look

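Of the 117 named genes 4 (3.42%) had a clone far from the other 3 of its 4 IDH2-mutant clones, where the gap to the nearest clone, divided by the range of the group, passed Dixon's critical value. Chance gives about 1 such group in 20. Clone 17H5 was the lowest in GLIS3, at 31.05 against 103.4 to 126.8 in the other IDH2-mutant clones, with a ratio of 0.837. It was also the lowest in GATA2, at 85.45 against 150.4 to 161.8, with a ratio of 0.891. Clone 47C2 was the highest in JARID2, at 1076 against 871.2 to 901.5, with a ratio of 0.838. Clone 45G3 was the lowest in CD44, at 2215 against 2470 to 2521, with a ratio of 0.842.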

How the results depend on the processing

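Between the enzymes the count of genes past the threshold, 0 in the fit as reported, was 4 where every clone had to reach the array median (ALDH1A3, CPT1C, EGR3 and ND4) and with robust variances, 1 with the probe set of highest variance and 1 with the wild-type clones in the fit (CPT1C in both), and 6 without the 2 arrays with high poly-A controls (2C11 replicate 1 and 8G12 replicate 2). It was 113 with the 14 arrays as samples, 91 with those and a replicate block, and 430 with genotypes weighted equally. Against R140Q the count of 42 was 65 and 86 with offsets of 16 and 50, 20 after quantile normalization, 68 with the probe set of highest variance, 7 without the variance trend, 718 with arrays as samples, 651 with the replicate block, 13 with the wild-type clones and 92 without the arrays with high poly-A controls. Of the 42 genes 20 remained after quantile normalization, 42 with arrays as samples and 13 with the wild-type clones. Against R172K the count of 0 was 9 with arrays as samples and 6 with the replicate block. Leaving out 1 array or clone gave 0 to 113 genes between the enzymes, 1 to 631 against R140Q and 0 to 35 against R172K. The cause of these shifts was not tested. Calls from arrays as samples rest on 2 arrays of each clone that share its history.

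Over 117 named genes and 35 alternatives, 12 of 4084 differences changed sign, in 9 genes. After quantile normalization these were CS at -0.001, SHMT2 at -0.014, SOD1 at -0.039, SOD2 at -0.04 and COX5A at -0.055. With the probe set of highest variance they were BCAT2 at 0.211, GPD2 at 0.027, ALKBH5 at -0.221 and COX5A at -0.217. Leaving out 1 array or clone, the named genes ran from -5.212 (PCDH7) to 3.952 (PMEPA1), both without clone 2C11. In these COL1A1 was at 0.001 without 45G3 replicate 1, 0.037 without 3A4 and 0.031 without 8G12. Signals near the 2.2 offset carry little information, and a difference of a dim gene such as BST2, ALDH1L2 or CBS depends on it.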
